A study of Mus musculus with 12 samples.

Results

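The interferon-stimulated genes described here are 33 genes that cells switch on after interferon binds its receptors, and they were followed in the livers of 6 wild-type (WT) and 6 Ppara knockout (Ppara KO) mice. They were taken by gene symbol from a list that names no measured value, but the list was drawn up with earlier results of these arrays known. Of the 33, 30 had a transcript cluster of their own among the 22180 genes tested, each with 1 such cluster, and all 30 were carried through every count below. Oas1a and Gbp2 were covered only by clusters that the platform annotation assigns to several genes, and Ifi44 had no cluster listed under its symbol, so these 3 are not analysed here. All 12 animals were adult females of 12 to 14 weeks on the C57Bl/6 background, kept on a 12-hour light cycle, and each gave 1 liver RNA sample and 1 array of the MoGene 2.0 ST design. The label of the first genotype is WT and that of the second is Ppara KO, with no other treatment. The labels name neither the knockout allele nor the cells in which it acts, and do not say whether the WT mice were littermates.

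Interferons are secreted proteins that warn cells of infection. Type I interferons act through the receptor chains IFNAR1 and IFNAR2 and the kinases JAK1 and TYK2, and the signal reaches a DNA element called ISRE in the promoters of target genes. The products detect viral nucleic acids, block translation, trap virus particles and feed back on the pathway, and a low tonic level of many of them is found in uninfected tissue. In the liver, hepatocytes, Kupffer cells and endothelial cells all respond to interferon. Ppara encodes PPARα, a nuclear receptor for fatty acids that drives lipid oxidation genes in hepatocytes. The question asked of the members is whether their transcripts differed between livers with and without the intact receptor gene.

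The values are log2 signals, and every difference is the Ppara KO mean minus the WT mean on that scale, followed by the standard error (SE) of the limma fit. A gene was called higher or lower at a limma adjusted p under 0.05 over all 22180 genes. The transcript cluster of Ppara itself did not differ (range 7.71 to 8.14 in WT livers and 7.81 to 8.16 in Ppara KO, adjusted p 0.882), and no source used here says whether its probes fall in the part that was removed. Cyp4a14, a PPARα target, lay between 9.95 and 11.01 in WT and between 3.50 and 6.44 in Ppara KO. Markers of hepatocytes had a mean level of 11.93 to 11.96 in WT livers and 11.94 to 12.07 in Ppara KO, where animal 1 alone lay within the WT range. Of these 8 markers 1 was called higher (12.5%, against 4.46% of all genes), Tdo2 (0.41, SE 0.067, adjusted p 0.00117), and 0 lower. The median of all 41345 clusters was 4.14, and a gene less than 1 log2 unit above it is named below as near the array median, the range in which background makes up much of a signal. Among the members this applied to Mx1 and Ifit2.

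Part of the interferon-stimulated genes was lower in Ppara KO livers. Of the 30 measured, 9 fell, 1 rose and 20 were not called, against a background of 5.77% lower, 4.46% higher and 10.2% called in either direction over all genes. The 9 that fell were Dhx58, Rtp4, Oasl1, Zbp1, Ddx60, Mx2, Parp9, Trim25 and Eif2ak2, and the 1 that rose was Bst2. The shifts were small: the called falls ran from 0.24 to 0.52 on the log2 scale, none reached 1.5-fold, and the limma adjusted p-values of the 10 calls ran from 0.00549 to 0.0387. The median difference over the 30 members was -0.19, beside 0.009 over all genes, and 22 of the 30 differences lay below 0 (73.3%, against 47.6% of all genes). Most members are well above the array median, so the same count was taken over such genes only: 9 of 28 members fell and 1 rose, beside 10.9% lower and 8.4% higher among 9297 genes. In 2 members, Rtp4 and Eif2ak2, every Ppara KO value lay below every WT value. Separation without overlap was found in 6.67% of the members and in 6.51% of all genes, 3.78% with Ppara KO lower, and the members' share is near this background. Over genes not near the array median it was found in 7.14% of the members and in 13.4% of genes, so members of such level separated less often.

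**Figure D1:**
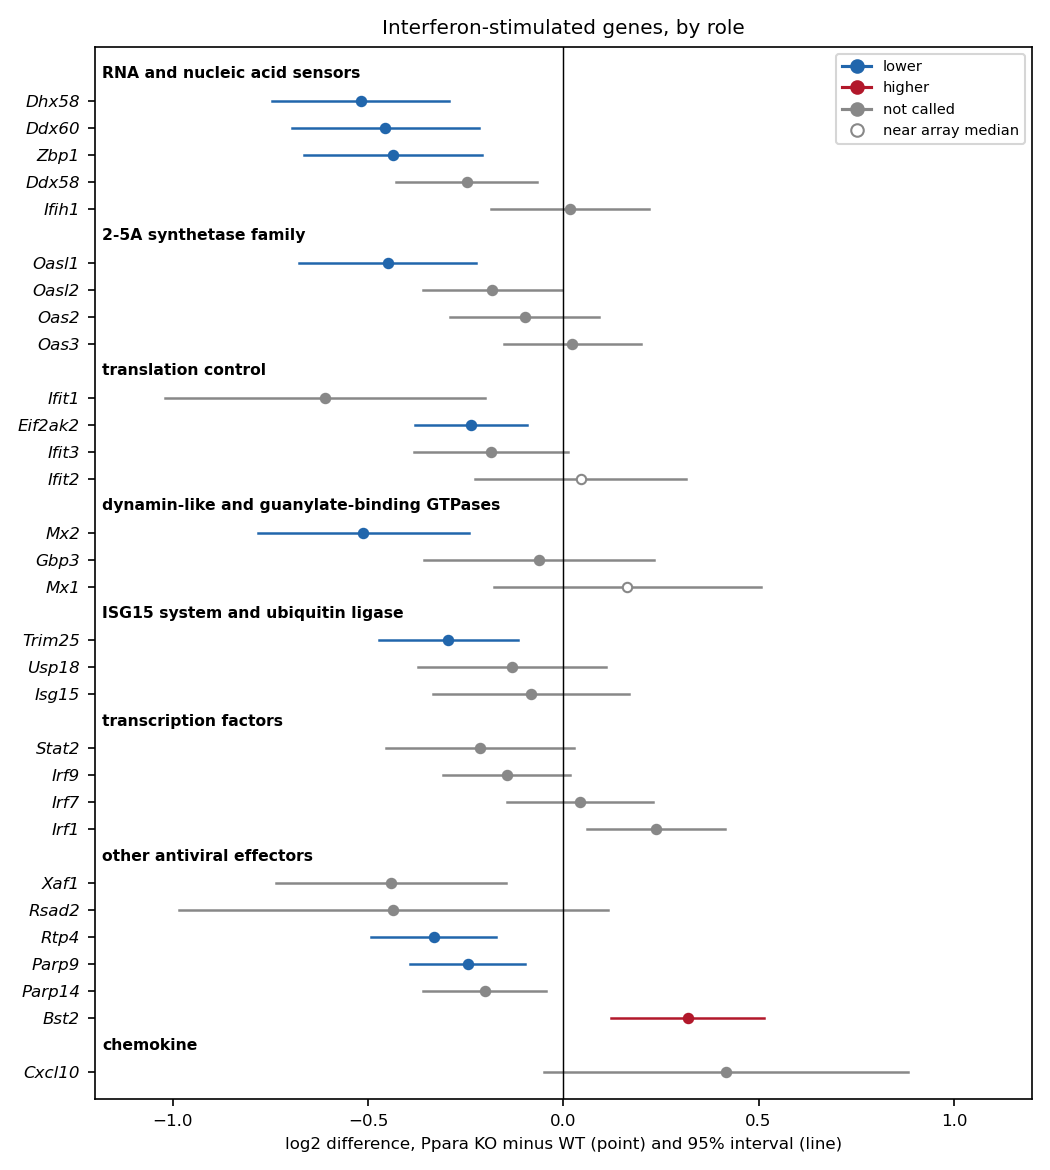
Log2 difference of the 30 measured members (Ppara KO minus WT, x axis) with its 95% limma interval, ordered by role; blue points fell, the red point rose, grey points were not called, and open points are near the array median. The falls are spread over several roles and lie between -0.52 and -0.24, and Bst2 at 0.32 is the called rise.

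The promoters of some members show the element through which interferon acts. RefSeq promoter windows of GRCm38.p6 (250 bases before to 50 after a gene's start) were held for 24 of the 33 members. The core of the ISRE, searched as GAAANNGAAA on both strands with overlapping matches counted, occurred in the windows of 15 of these 24 (62.5%), against 3.99% of 27025 genes and 3.44% of 32851 windows. The core of the GAS element, another DNA element of the interferon response, was searched as TTCNNNGAA, which reads the same on both strands, and occurred in 5 of the 24 (20.8%), against 9.55% of genes. A match is a stretch of letters and not a measured binding site. The stretches below come from all 4 called falls with an entry (Oasl1, Ddx60, Trim25 and Eif2ak2), from Bst2, the called rise, and, as uncalled members, from Ifih1, Ifit1 and Isg15. Bst2, Ifit1 and Isg15 were added after their values were seen. They are written 5′ to 3′ on the strand of the gene, and capitals mark matches to the ISRE core on either strand.
Ddx60: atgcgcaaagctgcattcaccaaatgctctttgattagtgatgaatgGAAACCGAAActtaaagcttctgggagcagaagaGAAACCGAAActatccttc
Oasl1: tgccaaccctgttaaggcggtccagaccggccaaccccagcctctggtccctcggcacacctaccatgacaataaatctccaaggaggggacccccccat
Trim25: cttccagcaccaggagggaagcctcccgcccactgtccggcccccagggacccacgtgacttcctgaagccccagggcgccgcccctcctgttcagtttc
Eif2ak2: gtccgccggGAAAACGAAAcagaagagaac
Bst2: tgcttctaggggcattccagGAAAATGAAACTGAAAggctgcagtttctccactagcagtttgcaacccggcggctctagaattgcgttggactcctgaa
Ifih1: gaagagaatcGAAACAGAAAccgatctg
Ifit1: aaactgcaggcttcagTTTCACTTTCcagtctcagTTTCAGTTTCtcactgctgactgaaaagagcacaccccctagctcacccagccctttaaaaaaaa
Isg15: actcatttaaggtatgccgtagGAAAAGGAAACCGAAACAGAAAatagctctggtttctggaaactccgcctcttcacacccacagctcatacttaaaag

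The 100 bases before the start of Ddx60 (chr8:61927987-61928086, plus strand) hold 2 identical ISRE cores, and those before the start of Isg15 (chr4:156200819-156200918, minus strand) hold 3 that overlap. In Ifit1 the stretch lies from 120 to 21 bases before the start (chr19:34640769-34640868, plus strand) and holds 2 matches on the other strand. Bst2 (chr8:71537523-71537622, minus strand, 150 to 51 bases before the start) has 2 overlapping matches and, starting 136 bases before the start, a GAS core. The matches of Eif2ak2 (chr17:78882534-78882563, minus strand) and Ifih1 (chr2:62646206-62646233, minus strand) lie just after the start. No match was found in the whole windows of Oasl1 and Trim25, whose last 100 bases before the start are shown (chr5:114923140-114923239 and chr11:88999303-88999402, both plus strand). The core was held by 3 of the 5 called members with an entry and by 10 of the 16 uncalled ones. Isg15, with 3 cores, had a difference of -0.08, and Ddx60, with 2, one of -0.46.

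Sensors of foreign nucleic acid held the most falls, 3 of 5 (60%, against 5.77% of all genes and 10.9% of those not near the array median). The roles hold few genes, so each gene weighs much in such a share. Dhx58 encodes LGP2, a RIG-I-like helicase that lacks the signalling domains of its relatives and tunes their activity. Its values ran from 6.08 over a median of 6.41 to 6.55 in WT and from 5.69 over 5.77 to 6.23 in Ppara KO. A single Ppara KO liver, animal 1, reached into the WT range, and the other 5 lay below every WT value. Dhx58 fell by 0.52 (SE 0.11, 1.43-fold, limma adjusted p 0.00549).

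Ddx60, a helicase gene reported to promote RIG-I-like signalling, had values of 5.62 to 6.19 (median 5.97) in WT and 5.11 to 5.64 (median 5.51) in Ppara KO. The groups touched only where the highest Ppara KO value passed the lowest WT value, and the gene fell by 0.46 (SE 0.11, adjusted p 0.0170). Zbp1, whose product senses Z-form nucleic acids and can start necroptosis, ranged from 6.92 to 7.44 (median 7.28) in WT and from 6.51 to 7.08 (median 6.80) in Ppara KO. It fell by 0.44 (SE 0.11, adjusted p 0.0166), with WT animal 5 the only WT liver inside the Ppara KO range.

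The 2 main RNA sensors themselves were not called. Ddx58, the RIG-I gene, lay at 7.53 to 7.75 (median 7.63) in WT and at 7.15 to 7.69 (median 7.38) in Ppara KO, a difference of -0.25 ± 0.084 (SE) with an adjusted p of 0.0795. Of the Ppara KO livers, animal 4 alone lay within the WT range, and without it the difference was -0.31 and passed the threshold (adjusted p 0.0192). Ddx58 passed in 1 of 12 such single-animal exclusions, and the limma adjusted p reached 0.161 in the others. Ifih1, the MDA5 gene, had means of 8.26 in WT and 8.27 in Ppara KO and a difference of 0.017 ± 0.095, with a 95% interval up to 0.22.

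In the family of 2-5A synthetases, whose product activates the nuclease RNase L, 1 of 4 measured members fell (25%, against 5.77% of all genes). Oasl1, an OAS-like gene whose product lacks synthetase activity and restrains the production of IRF7, had values from 7.12 to 7.41 (median 7.28) in WT and from 6.46 to 7.15 (median 6.81) in Ppara KO. Ppara KO animals 1 and 4 were the highest of their group, and only animal 4 reached above the lowest WT value. Oasl1 fell by 0.45 (SE 0.11, adjusted p 0.0132).

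Its direct neighbour on chromosome 5, Oasl2, was not called: 6.33 to 6.80 (median 6.55) in WT and 6.27 to 6.60 (median 6.39) in Ppara KO, a difference of -0.18 ± 0.084 with an adjusted p of 0.207. Oas2 (-0.099 ± 0.089) and Oas3 (0.023 ± 0.082), which also adjoin each other on chromosome 5, lay close to 0, with adjusted p-values of 0.579 and 0.914. The WT and Ppara KO ranges of all 3 overlapped over most of their length.

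Translation control had 1 fall among 4 members (25%, against 5.77% of all genes). Eif2ak2 encodes PKR, a kinase that halts translation when it binds double-stranded RNA. WT livers lay between 6.81 and 7.02 (median 6.92) and Ppara KO livers between 6.54 and 6.79 (median 6.70), with no overlap. The fall of 0.24 (SE 0.067, adjusted p 0.0354) was among the smallest called.

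Ifit1, whose product binds viral RNA that lacks the host cap modification, had the largest difference of all members but was not called. Its values were 6.76 to 7.29 (median 7.19) in WT and 5.92 to 7.32 (median 6.52) in Ppara KO, and its difference was -0.61 ± 0.19 with an adjusted p of 0.0567. The Ppara KO animals spread widely: 2, 3, 5 and 6 lay below every WT liver and animal 4 above all of them. Without Ppara KO animal 4 the difference was -0.77 and passed (adjusted p 0.00582), as it did without WT animal 5, the lowest of its group (-0.69, adjusted p 0.0420). Ifit1 passed in these 2 of 12 single-animal exclusions only, and the limma adjusted p reached 0.116 in the others. The other Ifit genes, which lie close to Ifit1 on chromosome 19, differed less: Ifit3 had -0.19 ± 0.093 (adjusted p 0.254) and Ifit2, near the array median, 0.044 ± 0.13 (adjusted p 0.892).

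Among the GTPases, Mx2, a gene of the dynamin-like Mx family, fell by 0.51 (SE 0.13, adjusted p 0.0171). It ranged from 5.73 to 6.33 (median 5.92) in WT and from 5.22 to 5.88 (median 5.33) in Ppara KO, where animal 1 alone lay above the lowest WT value. Mx1 was near the array median in both genotypes (means 3.41 and 3.57) and did not pass (0.16 ± 0.16, adjusted p 0.613). Laboratory strains such as C57Bl/6 carry a defective Mx1 allele. Gbp3, a guanylate-binding protein gene that responds strongly to interferon gamma, had -0.062 ± 0.14 with an adjusted p of 0.854.

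The ubiquitin-like ISG15 system gave 1 fall among 3 genes (33.3%, against 5.77% of all genes). Trim25, a ubiquitin ligase of RIG-I that also attaches ISG15, ranged from 8.08 to 8.42 (median 8.38) in WT and from 7.89 to 8.30 (median 8.03) in Ppara KO. WT animal 5 fell among the Ppara KO values, while the other 5 WT livers lay above all of them. It fell by 0.29 (SE 0.083, adjusted p 0.0351). Neither Isg15 itself (-0.083 ± 0.12, adjusted p 0.749) nor Usp18, the protease that removes ISG15 and dampens the receptor (-0.13 ± 0.11, adjusted p 0.551), was called, and their 95% intervals ended at 0.17 and 0.11 above 0.

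By limma 0 of the 4 transcription factors were called (against 10.2% of all genes), with 1 at an unadjusted p under 0.05, Irf1. Irf1 encodes a factor that interferon gamma induces strongly. Its values were 6.55 to 6.75 (median 6.60) in WT and 6.59 to 7.09 (median 6.81) in Ppara KO, a difference of 0.24 ± 0.083 with an adjusted p of 0.0878. Only Ppara KO animal 5 lay inside the WT range, and without it the difference was 0.29 and passed (adjusted p 0.0298). Irf1 passed in this 1 of 12 single-animal exclusions only, and the limma adjusted p reached 0.178 in the others. Stat2 (-0.21 ± 0.11, adjusted p 0.283) and Irf9 (-0.14 ± 0.076, adjusted p 0.283), which take part in signalling from the receptor to the ISRE, had differences below 0. Irf7, which amplifies the production of interferon, had 0.043 ± 0.087 (adjusted p 0.837).

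**Figure D2:**
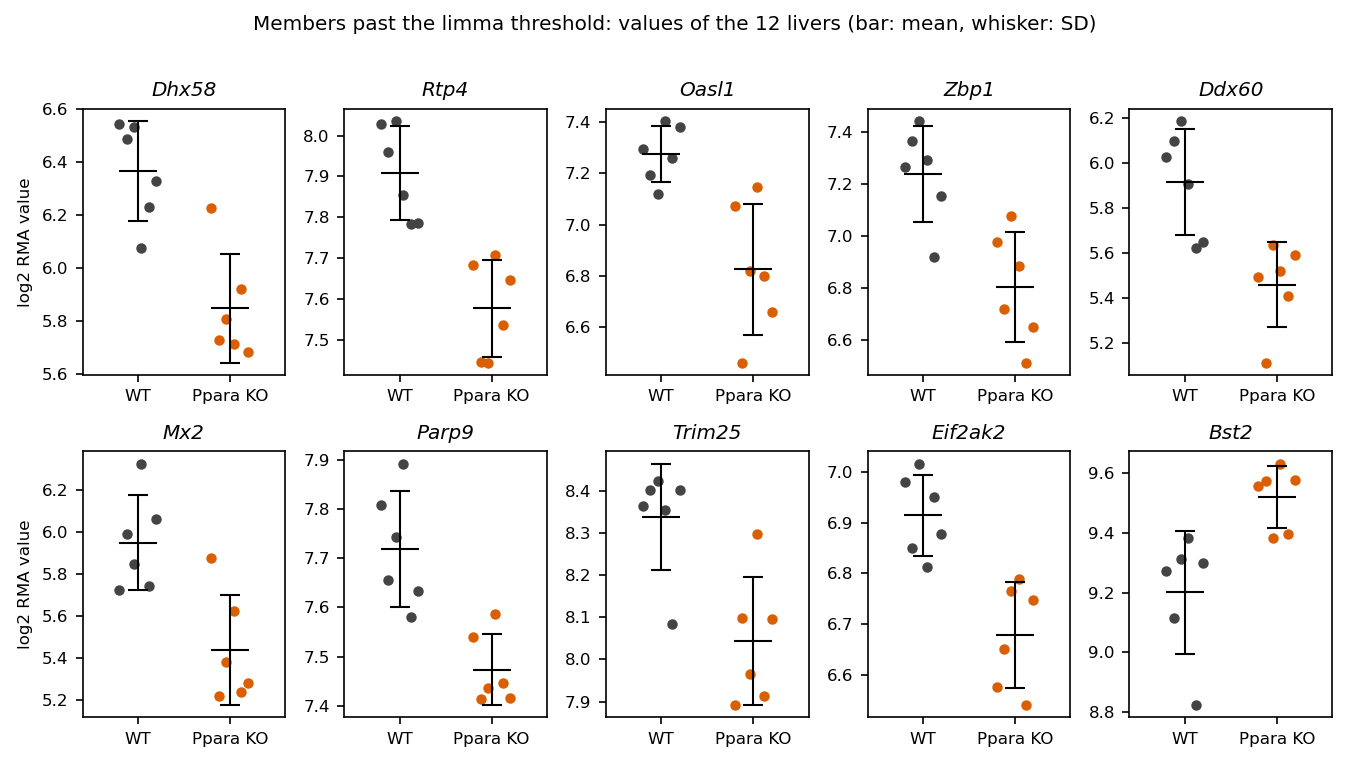
Log2 value of the 10 called members in the 6 WT (dark) and 6 Ppara KO (orange) livers, one panel per gene with its own axis; the bar is the mean and the whisker the SD. Rtp4 and Eif2ak2 separate without overlap, and in Dhx58, Oasl1 and Mx2 1 Ppara KO liver reaches the WT range.

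Of the other antiviral effectors, 2 of 6 fell and 1 rose (33.3% and 16.7%, against 5.77% and 4.46% of all genes). Rtp4, an interferon-induced zinc finger protein gene, separated the genotypes fully, with 7.78 to 8.04 (median 7.91) in WT and 7.44 to 7.71 (median 7.59) in Ppara KO. It fell by 0.33 (SE 0.075, adjusted p 0.0102). Parp9, a gene of the PARP family with a part in the antiviral response, had 7.58 to 7.89 (median 7.70) in WT and 7.41 to 7.59 (median 7.44) in Ppara KO. The groups met at a single point, and the gene fell by 0.25 (SE 0.069, adjusted p 0.0331). A further cluster assigned jointly to Parp9 and its neighbour Dtx3l had a difference of -0.073 ± 0.069, so the fall was not seen in that joint cluster.

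Parp14, 2 genes from Parp9 on chromosome 16 and an enzyme of the same family, was not called, with 7.65 to 8.01 (median 7.91) in WT and 7.59 to 7.79 (median 7.67) in Ppara KO. Its difference was -0.20 ± 0.074 (adjusted p 0.107), or -0.25 without WT animal 5, the lowest WT liver, where it passed (adjusted p 0.0390). Parp14 passed in this 1 of 12 single-animal exclusions only, and the limma adjusted p reached 0.205 in the others. Xaf1, which promotes apoptosis by opposing the inhibitor XIAP, had 6.35 to 7.04 (median 6.96) in WT and 6.02 to 6.86 (median 6.36) in Ppara KO. Its difference of -0.44 ± 0.14 just missed the threshold (adjusted p 0.0558). Without WT animal 5 it was -0.54 (adjusted p 0.0127), and without Ppara KO animal 1, the only one of its group above 6.53, it was -0.53 (adjusted p 0.0184). Xaf1 passed in these 2 of 12 single-animal exclusions only, and the limma adjusted p reached 0.117 in the others.

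Rsad2, the gene of viperin, which makes a chain-terminating nucleotide, spread most among the Ppara KO livers. It lay between 6.74 and 7.51 in WT and between 5.76 and 7.59 in Ppara KO, with an SD of 0.71 in Ppara KO against 0.26 in WT. Its difference of -0.44 ± 0.26 was as large as that of several called genes but was not called (adjusted p 0.350).

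Bst2 went the other way. It encodes tetherin, a membrane protein that holds budding virus particles on the cell surface and marks plasmacytoid dendritic cells and plasma cells besides being inducible elsewhere. Its values were 8.82 to 9.38 (median 9.28) in WT and 9.38 to 9.63 (median 9.56) in Ppara KO, with only the highest WT and the lowest Ppara KO liver at the same level, and it rose by 0.32 (SE 0.092, adjusted p 0.0387). Cxcl10, a chemokine gene that draws T cells, had 5.66 to 6.83 (median 5.81) in WT and 5.71 to 7.06 (median 6.45) in Ppara KO, a difference of 0.42 ± 0.22 that was not called (adjusted p 0.281).

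Some markers of other liver cells rose and others fell. Over all genes 5.77% fell and 4.46% rose, and the marker lists are short, so each gene weighs much in a list's share. Of 7 T cell markers 3 rose, Cd8a (0.46 ± 0.10), Cd8b1 (0.44 ± 0.11) and Themis (0.44 ± 0.093), and 0 fell, and the mean level of the list ran from 4.12 to 4.31 in WT and from 4.21 to 4.60 in Ppara KO, with all 7 near the array median. Of 7 B cell markers, all near the array median too, Jchain, a plasma cell gene, rose (0.51 ± 0.11) and 0 fell, with list means of 4.02 to 4.13 and 4.08 to 4.31. The 8 NK cell markers had 0 calls by limma and 1 with an unadjusted p under 0.05, Gzmb (0.41 ± 0.13, adjusted p 0.0560). The 7 plasmacytoid dendritic cell markers had 0 calls by limma and 0 with an unadjusted p under 0.05, and list means of 3.92 to 4.18 in WT livers and 4.01 to 4.17 in Ppara KO, with 6 of them near the array median. Of 11 Kupffer cell and macrophage markers 1 rose, Cd5l (0.45 ± 0.13), and 0 fell, with means of 7.42 to 7.85 in WT livers and 7.66 to 8.39 in Ppara KO. Differences were above 0 in 10 of the 11 (median 0.085). Marco (0.72 ± 0.27) was not called although its genotypes did not overlap, nor was Vsig4 (0.26 ± 0.098). The 8 liver endothelial markers had 0 calls by limma and 5 differences below 0 (median -0.092), with list means of 7.67 to 7.97 and 7.68 to 7.95. Of these, Clec4g (-0.23 ± 0.081) and Stab2 (-0.14 ± 0.060) had an unadjusted limma p under 0.05. The 7 monocyte and dendritic cell markers had 0 calls by limma and 5 differences above 0 (median 0.080), with 4 of them near the array median. The 7 neutrophil markers had 0 calls by limma and 5 differences below 0 (median -0.036), with 6 near the array median. Among lists that ran downward as the falling members did, 7 of 7 adipocyte markers had differences below 0 (median -0.92) and 2 of them fell, Adipoq (-0.92 ± 0.26) and Lipe (-0.37 ± 0.088). The list mean of adipocyte markers was 4.41 to 6.19 in WT livers and 4.22 to 4.49 in Ppara KO, with 5 of the 7 near the array median. Of 5 cholangiocyte markers Sox9 (-0.39 ± 0.11) and Krt19 (-0.26 ± 0.070) fell and 0 rose, with list means of 4.16 to 4.46 and 4.02 to 4.45. Only 3 of these 5 differences lay below 0 (median -0.024), and 4 of the 5 genes, Krt19 among them, were near the array median. Of 8 stellate cell markers 7 had differences below 0 (median -0.23), with 0 calls by limma and list means of 6.38 to 6.83 and 6.33 to 6.53. An unadjusted limma p under 0.05 was found for 4 of them. Lrat ran upward (0.39 ± 0.16), while Acta2 (-0.71 ± 0.25), Col3a1 (-0.33 ± 0.12) and Pdgfrb (-0.28 ± 0.11) ran downward. The part of these cell types in the rise of Bst2 and in the falls of the other members was not tested. In whole liver RNA, fewer cells of a type and less RNA per cell cannot be told apart.

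**Figure D3:**
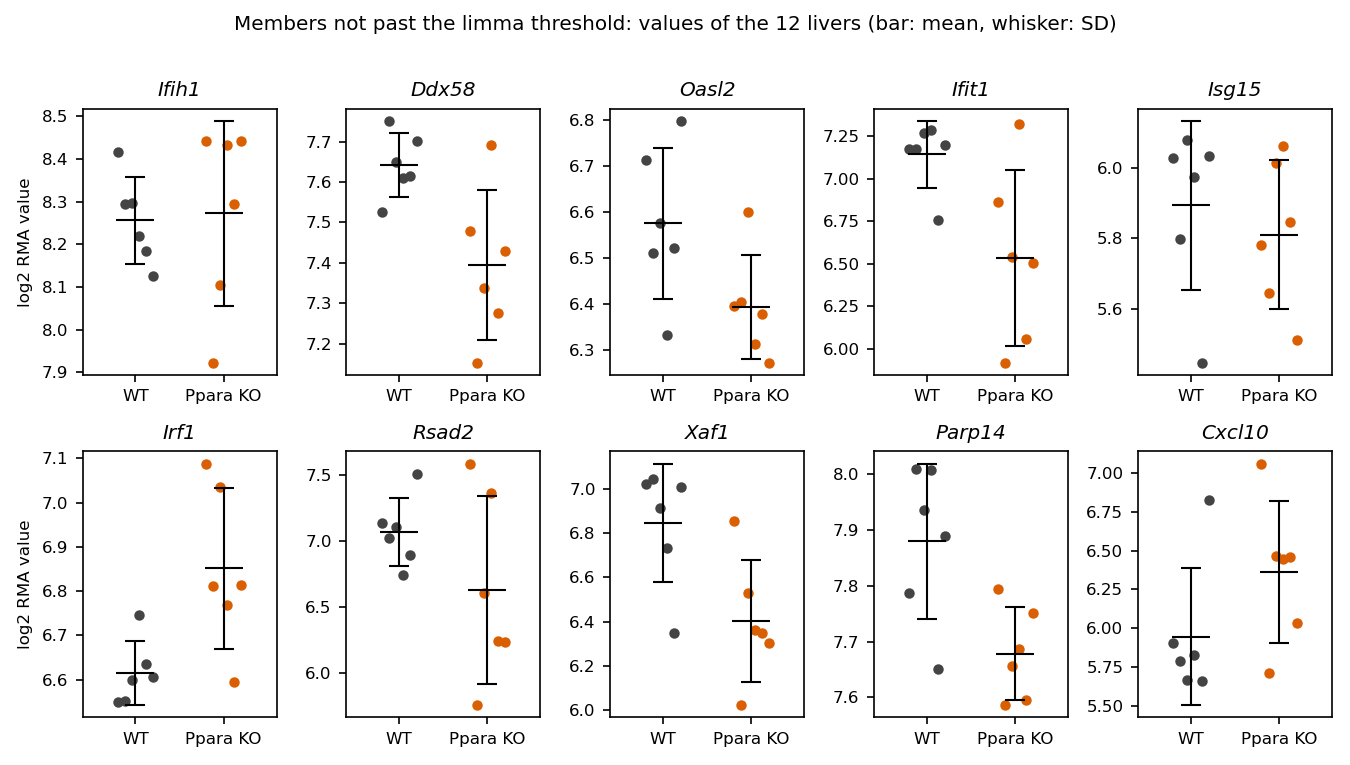
Log2 value of 10 members that were not called, in the 6 WT (dark) and 6 Ppara KO (orange) livers, one panel per gene with its own axis; the bar is the mean and the whisker the SD. The panels show the 6 uncalled members with an unadjusted limma p under 0.05 and, chosen after their values were seen, Ifih1, Isg15, Rsad2 and Cxcl10; the spread of Ifit1 and Rsad2 is widest in Ppara KO.

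Single livers were high or low across many members at once. Within WT, animal 5 was below the mean of its genotype in most members (only 4 of 30 above it, mean deviation -0.18), while animals 3 and 6 were above it in 24 and 21. Within Ppara KO, animal 1 was above the mean in 23 of 30 (mean deviation 0.19) and animal 4 in 21 (0.10), whereas animal 2 was above it in 8 (-0.17). Over all genes the mean deviation of an animal stayed between -0.0083 and 0.020. The mean level of the 30 members was 6.67 to 6.95 in WT livers and 6.50 to 6.87 in Ppara KO, so the ranges overlapped, with WT animal 5 below Ppara KO animals 1, 3 and 4. The SD was larger in Ppara KO than in WT in 18 of 30 members, 60% beside 50.7% of all genes.

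**Figure D4:**
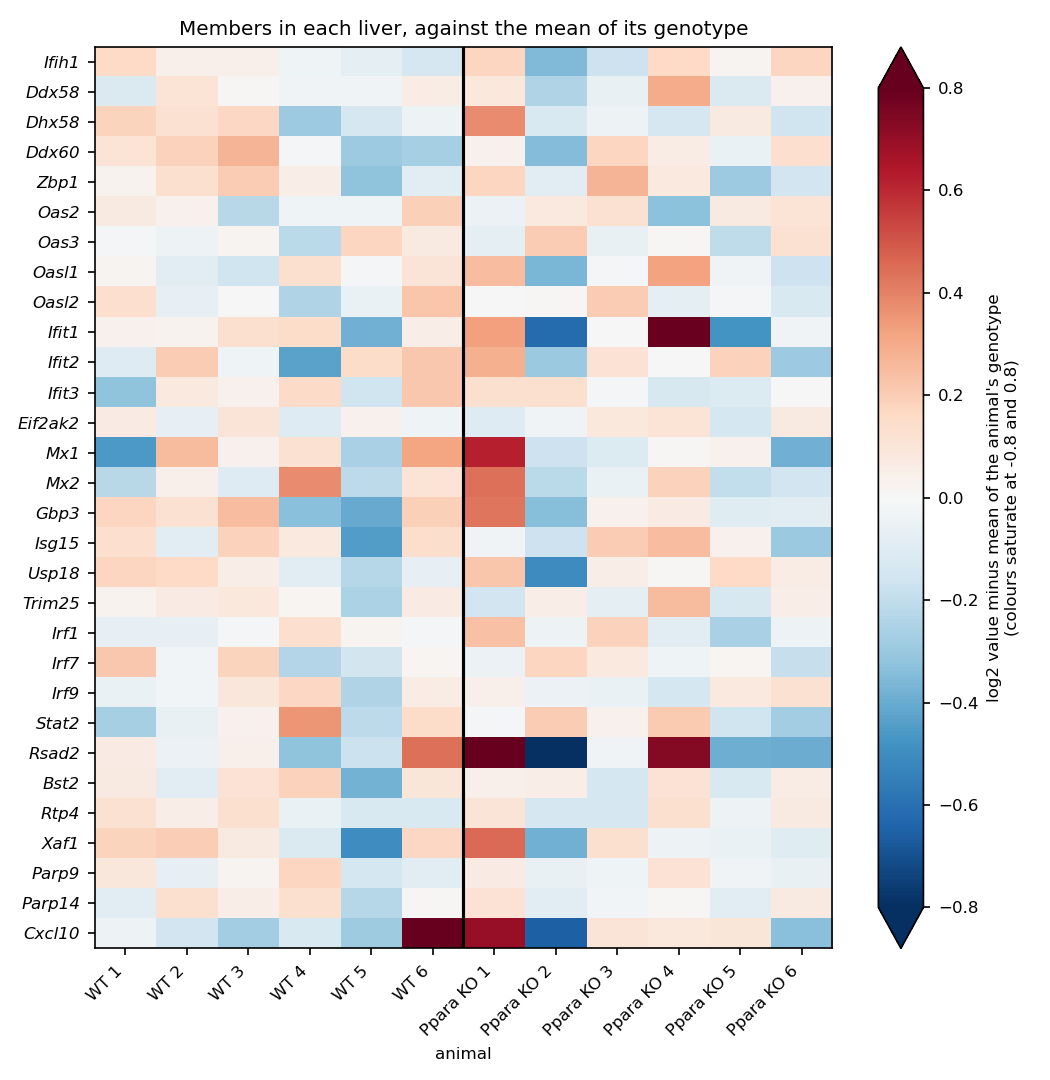
Each of the 30 members (rows, by role) in each of the 12 livers (columns), as its log2 value minus the mean of the animal's genotype; colours saturate at -0.8 and 0.8. The column of WT 5 is mostly blue and that of Ppara KO 1 mostly red, and Ifit1 and Rsad2 carry the strongest contrast between Ppara KO 1, 2 and 4.

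Because single livers stood apart, each was left out in turn. The calls of 6 members, Dhx58, Rtp4, Oasl1, Zbp1, Ddx60 and Mx2, held in all 12 such fits, with adjusted p-values of at most 0.0414. The other 4 calls did not: Trim25 lost its call without any of 10 animals, that is any but WT 5 and Ppara KO 4 (adjusted p up to 0.0783). Parp9 lost it without WT 1, 3 or 4 or Ppara KO 2, 3, 5 or 6 (up to 0.0699), Eif2ak2 without WT 1, 3, 5 or 6 or Ppara KO 1, 2 or 5 (up to 0.0827), and Bst2 without WT 1, 2 or 5 or Ppara KO 1, 2, 4 or 6 (up to 0.0808). Their differences stayed between -0.35 and -0.26 for Trim25, -0.27 and -0.21 for Parp9, -0.26 and -0.21 for Eif2ak2, and 0.24 and 0.36 for Bst2. Of the uncalled members, 5 passed without some single animal, as given above. In each case the animal left out ran against the difference, so these passes lend no support to a call. WT 1, 3 and 5 had high adipocyte markers (list mean 5.34 to 6.19, against 4.41 to 4.80 in the other WT and 4.22 to 4.49 in Ppara KO livers). Without these 3 animals together, 1 of the 10 calls was left, Mx2 (-0.69, adjusted p 0.0222), and the calls over all genes went from 2268 to 1008. The differences of Dhx58 (-0.45), Rtp4 (-0.29), Oasl1 (-0.50), Zbp1 (-0.47) and Ddx60 (-0.43) kept their sign there, with adjusted p-values of 0.0556 to 0.103.

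The rest of the interferon pathway was read from a list of 120 further genes, of which 107 were measured. In it 12 fell (11.2%, against 5.77% of all genes) and 3 rose (2.80%, against 4.46%), and the median difference was -0.028. The list held 28 genes near the array median. Among the 9297 tested genes not near it, 10.9% fell and 8.4% rose.

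Ligands gave 1 call in 19 measured genes (5.26%) and interferon receptors 1 in 6 (16.7%), beside 10.2% of all genes called in either direction. Of 19 interferon genes measured, 15 were near the array median and 1 was called: Ifnl3, a type III interferon gene, fell by 0.28 (SE 0.072, adjusted p 0.0192) at a level of 5.43 in WT and 5.14 in Ppara KO, just above the margin. The brightest clusters of this role that were not called belonged to Ifna1 (0.13 ± 0.15), Ifnl2 (-0.010 ± 0.079) and Ifna4 (-0.11 ± 0.10). Ifnar1, a chain of the type I receptor, fell by 0.22 (SE 0.063, adjusted p 0.0361), from 8.23 to 8.41 in WT to 7.95 to 8.21 in Ppara KO without overlap. The partner chain Ifnar2 (-0.061 ± 0.062) and the interferon gamma receptor chains Ifngr1 (-0.15 ± 0.066) and Ifngr2 (-0.23 ± 0.078) were not called.

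Receptor signalling gave 1 call in 8 measured genes (12.5%), and nucleic acid sensing and induction 1 in 19 (5.26%), beside 10.2% of all genes. Tyk2, the kinase bound to IFNAR1, fell by 0.30 (SE 0.068, adjusted p 0.00985), with WT livers at 6.363 to 6.646 and Ppara KO livers at 6.088 to 6.355 and no overlap. Jak1 (0.095 ± 0.054), Stat3 (-0.29 ± 0.12) and Pias1 (-0.022 ± 0.060) were not called. Tlr3, the endosomal sensor of double-stranded RNA, fell by 0.36 (SE 0.10, adjusted p 0.0350), whereas Mavs, the adaptor of the RIG-I-like sensors (0.0077 ± 0.082), Irf2 (0.11 ± 0.074) and the kinase gene Tbk1 (-0.00083 ± 0.064) were not called.

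Among 55 further interferon-induced genes 8 fell (14.5%) and 3 rose (5.45%), beside 5.77% and 4.46% of all genes. Of the 55, 7 were near the array median, none of them called. Among all tested genes not near it 10.9% fell and 8.4% rose, which is not a like comparison for shares over all 55. Cmpk2, a nucleotide kinase gene next to Rsad2 in the genome, fell by 0.69 (SE 0.16, adjusted p 0.0115), Helz2, a helicase that also acts as a coactivator of PPARs, by 0.61 (SE 0.10, adjusted p 0.00131), and Pml, the gene of nuclear body protein PML, by 0.47 (SE 0.077, adjusted p 0.00121). Helz2, Pml, Irgm2 and Lgals3bp separated the genotypes without overlap. Over the whole pathway list 5.61% of genes did so, beside 6.51% of all genes. Among all tested genes not near the array median it was 13.4%, a share that was not taken for the list's own genes of such level. Tor3a (-0.35 ± 0.086), Mov10, an RNA helicase (-0.30 ± 0.085), Irgm2, an immunity-related GTPase (-0.29 ± 0.070), Lgals3bp, a galectin-binding glycoprotein (-0.25 ± 0.060), and Trafd1, a feedback inhibitor of innate signalling (-0.20 ± 0.060), fell as well. The 3 rises were Slfn2, which is expressed in T cells and myeloid cells (0.50 ± 0.12, adjusted p 0.0133), Apol9a (0.33 ± 0.089, adjusted p 0.0279), which has a near-identical paralogue, and Ifi27 (0.32 ± 0.096, adjusted p 0.0465). The brightest uncalled clusters of this group were those of B2m (0.067 ± 0.053), Lgals9 (-0.16 ± 0.072) and Ifitm3 (-0.028 ± 0.061).

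Of the 15 calls in the pathway list, 9 held without each single animal: Ifnl3, Tyk2, Cmpk2, Helz2, Pml, Irgm2, Lgals3bp, Tor3a and Slfn2. The other 6 kept their sign but lost the call when 1 animal was left out. These were Ifnar1 (WT 2, 3, 5 or 6 or Ppara KO 1, 2, 3 or 4, adjusted p up to 0.0809) and Tlr3 (WT 2, 3, 5 or 6 or Ppara KO 2, 3 or 5, up to 0.0788). Trafd1 depended on any animal but WT 5 and Ppara KO 1 (up to 0.0991), and Mov10 on WT 1, 2, 3 or 6 or Ppara KO 2, 3, 5 or 6 (up to 0.0795). Ifi27 lost its call without any animal but WT 2 and Ppara KO 1 and 6 (up to 0.102), and Apol9a without WT 1, 5 or 6 or Ppara KO 1, 3 or 4 (up to 0.0637). Without WT 1, 3 and 5 together, 3 of the 15 were still called, Pml (-0.53), Helz2 (-0.63) and Mov10 (-0.37).

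**Figure D5:**
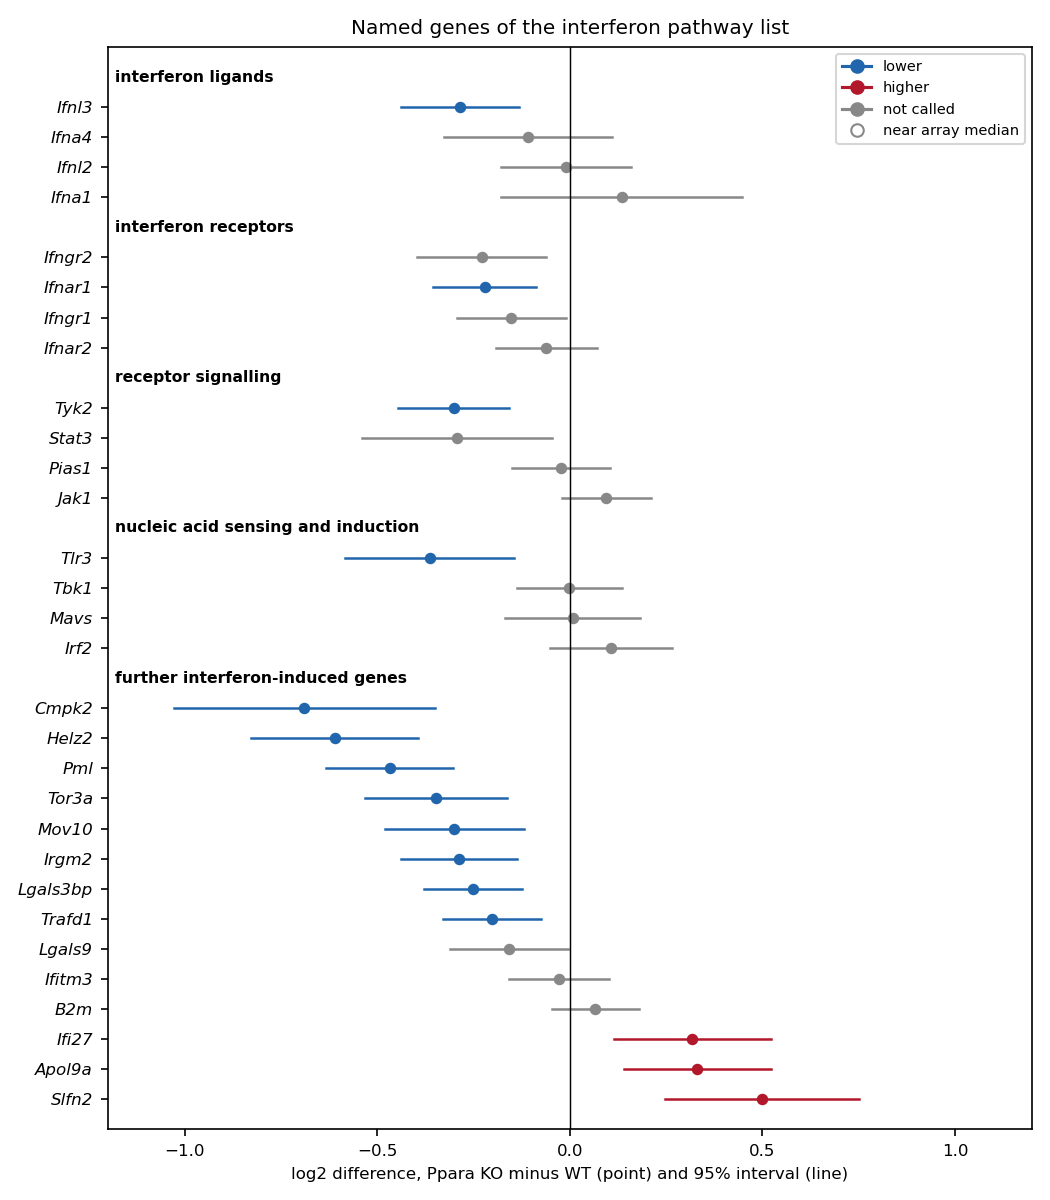
Log2 difference (Ppara KO minus WT, x axis) with its 95% limma interval for the 15 called genes of the interferon pathway list and the 3 uncalled genes of highest mean level in each role; blue fell, red rose, grey was not called. The falls run from Cmpk2 at -0.69 to Trafd1 at -0.20.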

How the data were processed

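Liver RNA of 6 WT and 6 Ppara KO mice was measured on 1 array each. The deposited log2 values per transcript cluster were made by the authors with RMA and Partek (versions not stated), per the submitters' processing notes. RMA subtracts background, puts all arrays on one distribution and combines the probes of a cluster. The array medians lay between 4.13 and 4.17, a shift common to most genes cannot be seen in such values, and differences of dim genes come out too small. Precision is limited by the number of arrays: a difference had a median SE of 0.0926.

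Of 41345 clusters, 23521 had 1 symbol in the platform annotation. The cluster of highest mean stood for a gene, which gave 22180 genes. They were fitted with limma 3.58.1 in R 4.3.3 (lmFit and eBayes, 1 mean per genotype, no covariate), with Benjamini-Hochberg adjustment over all 22180. The fit was tested on simulated data. The members and lists were chosen with earlier results of these data known. All measured members are named, with full ranges for those called or with an unadjusted p under 0.05. From the pathway list the called genes and the 3 brightest uncalled genes per role are named.

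Replicate numbers did not pair the animals (6 correlations of deviations between -0.047 and 0.043). The labels used here give no batch, collection time or fasting state. Promoter sequences are those of RefSeq, GRCm38.p6.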

Additional observations from a re-analysis of the deposited data

Results flagged for a closer look

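In 122 groups of 6 animals (30 members, 30 pathway genes and the mean of the members, in each genotype), 6 had 1 animal that stood far from the other 5, and chance alone would mark about 1 group in 20. Ifit1 in WT animal 5 was at 6.76, with the nearest WT liver at 7.17. Trim25 in the same animal was at 8.08, with the nearest at 8.35. Usp18 was at 6.85 in Ppara KO animal 2, with the nearest at 7.36. Cxcl10 was at 6.83 in WT animal 6, above all other WT livers, of which the highest was at 5.90. Mavs was at 9.09 in WT animal 1, with the nearest at 9.45. Irf2 was at 8.05 in WT animal 2, with the nearest at 7.88.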

How the results depend on the processing

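Of the 30 members, 24 kept the sign of their difference under each alternative that gave one (22 to 24 for a member). Leaving out each animal gave 6 to 11 members called lower, 0 to 2 called higher, 8 to 12 pathway genes called lower, 1 to 3 called higher, and 1817 to 2130 genes called in all. The main counts were 9, 1, 12, 3 and 2268. The stricter threshold of 0.01 left 1, 0, 3, 0 and 1070, and a minimum of 1.5-fold left 0, 0, 2, 0 and 508. Without WT 1, 3 and 5 the counts were 1, 0, 3, 0 and 1008, with fewer animals. A threshold of 0.1 or either filter on dim genes gave 2 members called higher. With all 41345 clusters tested, 6 members and 8 pathway genes were called lower and 0 and 1 higher, which ended the calls of Eif2ak2, Trim25, Parp9 and Bst2, and the exact permutation test called 0 pathway genes higher. That test ended the calls of Zbp1, Mx2 and Trim25. The replicate block, whose numbers pair no animals, gave 8 members lower and 1 higher, 8 and 3 pathway genes and 1672 genes in all, and 1 of 6 WT animals resembled its own number best. Mx1, near the array median, changed sign without WT 1, 3 and 5 (-0.066), as did the uncalled Ifna4 (0.032), Mavs (-0.094), Tbk1 (0.027) and Ifnl2 (0.087). With single animals left out, uncalled differences crossed 0 in Ifih1 (-0.017 to 0.087), Oas3 (-0.020 to 0.064), Ifit2 (-0.042 to 0.10), Irf7 (-0.0042 to 0.086), Ifitm3 (-0.047 to 0.00081), Ifnl2 (-0.047 to 0.039), Mavs (-0.065 to 0.038), Tbk1 (-0.024 to 0.032) and Gbp3 (-0.15 to 0.0057). Quantile normalization turned the sign of Ifnl2 (0.0089) and Tbk1 (0.0030), array weights that of Tbk1 (0.0048) and centring that of Mavs (-0.0038).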
